A study of Mus musculus with 6 samples.

Results

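Expression in CD144-enriched cells of Leene-knockout mice given human LEENE was set against that of wild-type mice given a control vector, to ask which genes and functions still differed from wild type after supplementation and which did not. This comparison used 4 of the 6 RNA-seq libraries of the study, chosen by their sample titles: the 2 KO + LEENE libraries and the 2 WT + GFP libraries. WT + GFP mice carried the intact locus and received an adenovirus encoding green fluorescent protein (Ad-GFP). KO + LEENE mice carried the Leene deletion and received an adenovirus encoding human LEENE (Ad-LEENE), so genotype and transgene changed together and cannot be told apart here. The 2 KO + GFP libraries, with the deletion and Ad-GFP, are given beside a value where they help to place it. All mice were fed a high-fat high-sucrose diet and underwent hind limb ischemia (HLI) on day 0, with virus injected into the muscle on days 1 and 4 by the labels, and harvest after 1 week. Methods of the study put the second injection later than the labels do, and name a C57BL/6J background and a germline CRISPR/Cas9 deletion on chromosome 14. Its mice were of both sexes, and the diet was begun in young adults and kept for months before surgery. Ad-LEENE carried a GFP tag and was injected into muscle, a route that is not limited to endothelial cells (ECs). Per the file headers the 2 libraries of a group shared 1 facility sample number, and the sources used here do not say whether they came from separate mice. P values therefore compare these libraries and may measure technical spread only.

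LEENE is a long noncoding RNA of ECs, named for enhancing expression of the gene for endothelial nitric oxide synthase. CD144 is VE-cadherin, the adhesion molecule of endothelial junctions, and beads against it enrich ECs from digested muscle. In ischemic muscle, low oxygen stabilizes hypoxia-inducible factor (HIF), which raises vascular endothelial growth factor A (VEGF-A), and VEGF-A acts through receptors on ECs to start new vessel growth.

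Totals over all genes were 4534530 and 4126552 reads for WT + GFP, and 1770992 and 1791336 for KO + LEENE. Genes with 10 or more reads numbered 6189 and 5832 for WT + GFP, and 4574 and 4640 for KO + LEENE. Of all reads, the top 20 genes of each library took 66.4% and 66.5% for WT + GFP, and 57.5% and 57.5% for KO + LEENE. Libraries were scaled by TMM, which assumes that most genes keep their level; after scaling, an equal level gave 0.653 times as many reads in KO + LEENE as in WT + GFP. Leaving out the 20 top genes of a pair, the median squared gap between the 2 libraries of a group was 1.22 times counting noise in WT + GFP and 1.18 times in KO + LEENE. Between the groups it was 56.7 and 60.9 times counting noise. The noncoding genes of the targeted region and the transgenes were not analysed here, so the genotype labels were not checked against them. Ktn1, the kinectin gene next to the deleted region, had 224 and 219 reads in the WT + GFP libraries and 1006 and 1035 in the KO + LEENE libraries, a log2 fold change of 2.82 ± 0.092 (SE) (adjusted P = 2.42e-161, edgeR), with 749 and 550 in KO + GFP. The sex of the mice behind each library is not given in the sources used here. Of 4 sex-linked genes tested, Ddx3y, on the Y chromosome, went from 4 and 3 reads in wild type to 136 and 145 after LEENE (log2 fold change 5.88 ± 0.60), with 7 and 7 in KO + GFP. Xist, on the X chromosome, with 50 and 28 against 28 and 22 reads, and Uty, on the Y, with 100 and 95 against 41 and 60, were not called different, and neither was Kdm5d, on the Y. The part of sex in the differences below was not tested.

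Differences from wild type were wide. Of 8903 genes tested with edgeR's quasi-likelihood test, 6295 (70.7%) passed an adjusted P of 0.05, of which 3014 (33.9% of genes tested) were higher and 3281 (36.9%) lower in KO + LEENE. The filter read all 6 libraries, so some genes tested were near 0 in both groups. Cs had 2 and 0 against 0 and 0 reads, with 539 and 355 in KO + GFP. With only the 4 samples compared, 6941 genes were tested and 5758 called, a larger share. Shares over all genes below refer to the 8903. A test of whether a change exceeded 2-fold was passed by 4966 genes (55.8%), 2393 of them higher (26.9%) and 2573 lower (28.9%). A test of whether a difference lay inside 2-fold in both directions was passed by 569 genes (6.39%). The remaining 3368 genes (37.8%) passed neither test, so these data place them on neither side. Errors of log2 fold changes are standard errors (SE) throughout. In 7443 genes (83.6%) the 2 groups did not overlap. The median log2 fold change over all genes was -0.11, or -0.10 with the 876 genes that had no read in 1 group set at the bound that 3 reads per library allow. On library size alone this median was 0.50, and 141 of the 6295 genes called changed sign. On that scale 465 genes were within 2-fold, of which 230 were among the 569, and 35 of the 569 were past 2-fold. There 40.1% of the genes called were lower against 52.1% with TMM.

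The same test was read in well-measured genes. Among the 2713 genes with at least 10 reads in each of the 4 libraries, 1967 (72.5%) passed, 1032 higher (38.0%) and 935 lower (34.5%). Past 2-fold were 1192 (43.9%), 650 higher (24%) and 542 lower (20%), and 566 (20.9%) were within 2-fold, which left 955 (35.2%) on neither side. The within class held few genes but many reads: its share of each library was 53.5% and 54.1% for WT + GFP, and 62.5% and 62.5% for KO + LEENE. Most of it lay in 3 genes, mt-Rnr2, mt-Rnr1 and Gm12155, which together took 41.5% and 42.1% for WT + GFP, and 45.3% and 45.2% for KO + LEENE. Their sum hides opposite moves: Gm12155 took 7.03% and 7.15% for WT + GFP, and 13.5% and 13.5% for KO + LEENE. mt-Rnr2 took 25.1% and 25.5% for WT + GFP, and 23.2% and 23.1% for KO + LEENE. All 3 were called different, Gm12155 higher, mt-Rnr2 and mt-Rnr1 lower. Protein-coding genes made up 73.9% of the within class and 85.0% of the class past 2-fold. In all, 208 genes were both called different and shown to lie within 2-fold, a small difference that could still be measured. The share past 2-fold varied with depth. It was 35.4% of 2751 genes with a mean under 10 reads, 77.9% of 1077 genes with 200 to 1000 reads, and 59.7% of 201 genes with 1000 or more.

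**Figure D1:**
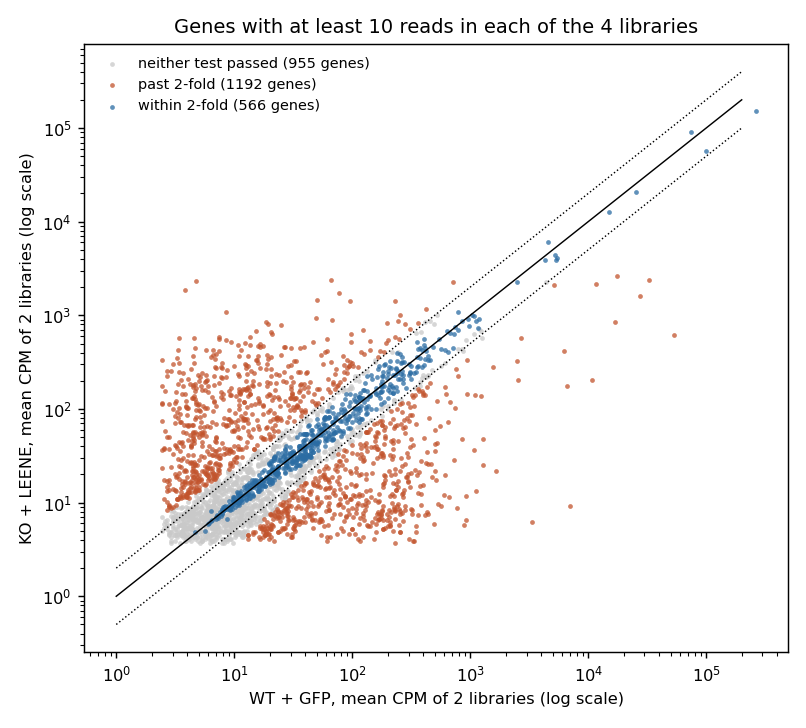
Mean CPM of the 2 WT + GFP libraries (x axis) and the 2 KO + LEENE libraries (y axis), both log scales, for the 2713 genes with at least 10 reads in each library; the solid line marks equality and the dotted lines 2-fold. The 566 genes shown to be within 2-fold form a band along the line, and the 1192 genes past 2-fold lie away from it on both sides.

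Endothelial identity genes differed from wild type in both directions. Of 30 genes listed, 18 could be tested: 5 were higher (33.9% of all genes were) and 8 lower (36.9% of all genes), with a median log2 fold change of -0.93. Of the 30, 6 had at most 3 reads in all 4 libraries. Only 5 had at least 10 reads in all 4 libraries. Of these, 2 were higher and 2 lower (38.0% and 34.5% of well-measured genes), with a median of -0.30. In bulk cells, fewer cells of a type and less RNA per cell cannot be told apart. Cdh5, which encodes the CD144 protein used for enrichment, had 5 and 18 reads in KO + LEENE against 332 and 283 in WT + GFP. Both KO + LEENE libraries lay far below both wild-type libraries, a log2 fold change of -4.11 ± 0.33 (SE) (adjusted P = 6.96e-68, edgeR), while KO + GFP had 322 and 196 reads. The log2 fold change of Cdh5 was -3.48 without the first KO + LEENE library and -5.29 without the second. The same direction was seen in Ptprb, the vascular endothelial phosphatase VE-PTP that restrains Tie2, with 1928 and 1823 WT + GFP reads against 8 and 6 KO + LEENE reads (log2 fold change -7.43 ± 0.36). Erg, an ETS transcription factor that maintains endothelial identity, had 417 and 345 reads in the WT + GFP libraries and 8 and 4 in the KO + LEENE libraries (log2 fold change -5.35 ± 0.45). Fli1, a related ETS factor, fell less, from 42 and 30 reads to 10 and 11 (log2 fold change -1.15 ± 0.30; not called on library size), but had 7782 and 4908 reads in KO + GFP.

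Other endothelial genes stood above wild type. Vwf, the von Willebrand factor gene of endothelial storage granules, had 317 and 340 reads in KO + LEENE against 81 and 53 in WT + GFP, a log2 fold change of 2.91 ± 0.16 (SE) (adjusted P = 2.96e-81, edgeR). Robo4, an endothelial guidance receptor that stabilizes vessels, had 21 and 15 WT + GFP reads against 80 and 61 KO + LEENE reads (log2 fold change 2.57 ± 0.27), and 1586 and 950 in KO + GFP. Sox18, a transcription factor of vascular and lymphatic development, had 2 and 0 reads in the WT + GFP libraries and 44 and 24 in the KO + LEENE libraries, which is 52.0-fold higher with a 95% counting interval of 13.9 to 438. Pecam1, the junctional adhesion molecule CD31, stayed within 2-fold of wild type: it had 95 and 110 reads in KO + LEENE against 211 and 175 in WT + GFP (log2 fold change -0.30 ± 0.15; adjusted P = 3.96e-05 for lying within 2-fold, edgeR fit). Emcn and Tie1, a sialomucin and an orphan receptor of ECs, passed neither test, with 14 and 8 against 8 and 7 reads for Emcn. Tie1 went from 9 and 1 to 5 and 8 reads, and was called higher without the first WT + GFP library (adjusted P = 0.0054) and on library size (adjusted P = 0.018, edgeR).

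Junction genes, a list that includes Cdh5 and Pecam1, were divided as well. Of 11 tight and adherens junction genes tested, 4 were higher (33.9% of all genes were) and 4 lower (36.9%). All 8 were past 2-fold (55.8% of all genes), and 2 others were within 2-fold (6.39% of all genes). Jam3, a junctional adhesion molecule, had 115 and 102 WT + GFP reads against 0 and 2 KO + LEENE reads, 70.9-fold lower with a 95% counting interval of 19.4 to 589. Afdn, the afadin linker of nectins to actin, had 25 and 19 reads in the WT + GFP libraries and 415 and 443 in the KO + LEENE libraries (log2 fold change 4.89 ± 0.24; it shares exonic sequence with an antisense gene, and strand was not counted). Ctnnb1 (β-catenin), which binds the tail of VE-cadherin, had 106 and 84 reads in KO + LEENE against 45 and 32 in WT + GFP (log2 fold change 1.91 ± 0.23; it overlaps genes on both strands), so this partner rose where Cdh5 fell. Tjp1, the ZO-1 scaffold of tight junctions, had 24 and 25 WT + GFP reads against 14 and 18 KO + LEENE reads (log2 fold change 0.00 ± 0.36). It passed the test for lying within 2-fold by a narrow margin (adjusted P = 0.0484, edgeR fit) and missed it whenever any 1 library was left out (adjusted P from 0.068 to 0.49).

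Among VEGF ligands and receptors, 2 of 8 members tested were higher (33.9% of all genes were) and 6 lower (36.9%), with a median log2 fold change of -1.07. Of the 4 with at least 10 reads in each library, 0 were higher and 4 lower (38.0% and 34.5% of well-measured genes). Of these 4, 1 was past 2-fold (43.9%) and 1 within it (20.9%). Vegfa, the principal angiogenic ligand, had 8 and 2 reads in the WT + GFP libraries and 799 and 788 in the KO + LEENE libraries, a log2 fold change of 7.88 ± 0.47 (SE) (adjusted P = 3.85e-238, edgeR); KO + GFP had 23 and 19 reads. Without the first WT + GFP library the log2 fold change of Vegfa was 9.06, and without the second 7.29. Vegfc, the lymphangiogenic ligand, also rose, from 0 and 2 to 11 and 10 reads, 16.1-fold higher with a 95% counting interval of 3.93 to 141. Both receptors for VEGF-A were below wild type. Kdr, which encodes the main signaling receptor VEGFR2, had 47 and 41 reads in KO + LEENE against 808 and 708 in WT + GFP (log2 fold change -3.49 ± 0.17), and 13 and 9 in KO + GFP. Flt1, the decoy receptor VEGFR1, had 502 and 451 WT + GFP reads against 5 and 5 KO + LEENE reads (log2 fold change -5.93 ± 0.49). Nrp1, the coreceptor neuropilin 1, went from among the more abundant genes to near the floor: 9647 and 8692 reads in the WT + GFP libraries and 9 and 4 in the KO + LEENE libraries (log2 fold change -9.83 ± 0.31; -10.52 without the first KO + LEENE library; exons overlap a gene on the same strand). Pgf, placental growth factor, a ligand of VEGFR1, was close to wild type with 246 and 294 reads in KO + LEENE against 696 and 617 in WT + GFP (log2 fold change -0.67 ± 0.095; adjusted P = 0.00483 for lying within 2-fold, edgeR fit), a fall that vanished on library size (log2 fold change 0.0028).

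Angiopoietin, Notch and growth factor genes added both kinds of change. Angpt2, the destabilizing Tie2 ligand that ECs release, had 9 and 7 WT + GFP reads against 117 and 101 KO + LEENE reads (log2 fold change 4.36 ± 0.41), and 294 and 144 in KO + GFP. In the Notch pathway 3 of 8 tested genes were higher and 3 lower, against 33.9% and 36.9% of all genes called. All of these were past 2-fold, against 26.9% of all genes higher and 28.9% lower past 2-fold. The receptor gene Notch2 had 15 and 8 reads in the WT + GFP libraries and 395 and 451 in the KO + LEENE libraries (log2 fold change 5.80 ± 0.33; overlaps a gene on the same strand), whereas Rbpj, the nuclear effector shared by all Notch receptors, had 28 and 31 reads in KO + LEENE against 180 and 163 in WT + GFP (log2 fold change -1.92 ± 0.21). Among transforming growth factor β genes the receptor Tgfbr2 fell (494 and 447 WT + GFP reads against 57 and 48 KO + LEENE reads) while Smad4, the common signal transducer, rose (4 and 4 reads in the WT + GFP libraries and 299 and 287 in the KO + LEENE libraries). Of the 14 genes tested in the PDGF, TGF-β and FGF list 8 were higher and 3 lower (33.9% and 36.9% over all genes), with a median log2 fold change of 1.14. Pdgfb, the EC ligand that recruits pericytes, had 25 and 23 reads in KO + LEENE against 13 and 14 in WT + GFP (log2 fold change 1.43 ± 0.39), and 1 and 3 in KO + GFP.

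Of 13 tested genes for endothelial nitric oxide synthase and its regulators, 8 were lower (against 36.9% of all genes) and 1 higher (33.9%), with a median log2 fold change of -1.31. Nos3, the endothelial synthase gene, had 19 and 8 WT + GFP reads against 5 and 2 KO + LEENE reads (log2 fold change -1.31 ± 0.68; adjusted P = 0.0485, edgeR). That call was lost without the first WT + GFP library (adjusted P = 0.51), without the second KO + LEENE library (adjusted P = 0.34) and without either KO + GFP library (adjusted P = 0.079 each time), as it was by DESeq2 (adjusted P = 0.25), with DESeq2 size factors in edgeR (adjusted P = 0.054), with no filter (adjusted P = 0.17), with the replicate block (adjusted P = 0.091) and on library size (adjusted P = 0.36). The log2 fold change was -0.64 without the first WT + GFP library and -2.10 without the first KO + LEENE library, and Nos3 overlaps an antisense gene. Prkaa1, a catalytic subunit of AMP-activated kinase that phosphorylates the synthase, had 591 and 560 reads in the WT + GFP libraries and 2 and 2 in the KO + LEENE libraries, 188-fold lower with a 95% counting interval of 73.2 to 691. Klf4, a flow-responsive transcription factor that induces Nos3, had 5 and 1 reads in KO + LEENE against 180 and 171 in WT + GFP, 38.2-fold lower with a 95% counting interval of 17.4 to 105, with 630 and 389 in KO + GFP. Hsp90ab1, a chaperone gene, was within 2-fold: 1713 and 1640 WT + GFP reads against 767 and 811 KO + LEENE reads (log2 fold change -0.47 ± 0.071). Its small fall turned to a rise of 0.20 on library size alone.

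**Figure D2:**
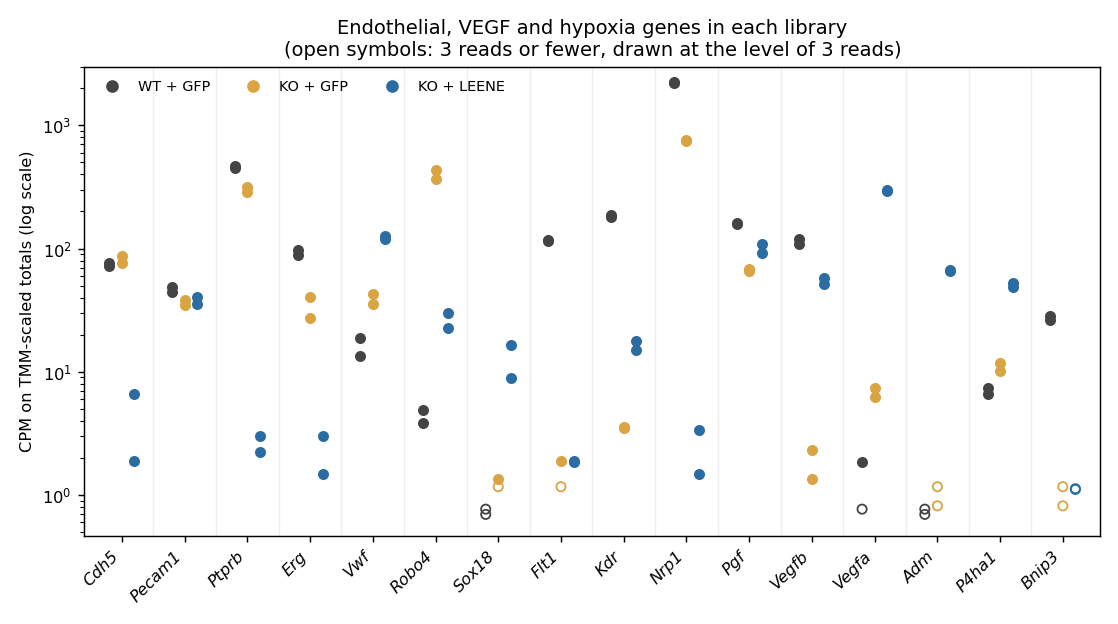
CPM on TMM-scaled library totals (y axis, log scale) of 16 endothelial, VEGF and hypoxia genes in each of the 6 libraries, 1 symbol per library; open symbols mark 3 reads or fewer and are drawn at the level of 3 reads. KO + LEENE lay below WT + GFP for Cdh5, Ptprb, Erg, Flt1, Kdr, Nrp1 and Bnip3, above it for Vwf, Robo4, Sox18, Vegfa, Adm and P4ha1, and near it for Pecam1.

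HIF, the regulator of hypoxia genes, binds the core sequence ACGTG. Of 25 genes listed 13 could be tested; 5 were higher and 3 lower (33.9% and 36.9% over all genes), with a median log2 fold change of -0.17 (-0.14 with genes that had no read in 1 group at their bound) that turned to 0.50 on library size. Promoters were taken from a RefSeq table on GRCm38.p6 that gives 250 bases before and 50 after each start, and 21 genes of the list matched it. ACGTG on either strand was found in 17 of these 21 genes (81.0%), against 21.8% of 27025 genes in the table and 28.5% of the 5682 tested genes that matched. It was present in 4 of the 5 genes that rose (80.0%) and in the 1 gene that fell and matched, so it did not set apart the genes that rose. The list was chosen as hypoxia genes, so its share describes the list and not KO + LEENE against WT + GFP. The 250 bases before the start are shown for 2 genes that rose and 1 that fell, 5′ to 3′ on the gene's strand, with ACGTG or its reverse complement CACGT in capitals.
P4ha1 (GRCm38.p6, chr10:59323046-59323295, plus strand): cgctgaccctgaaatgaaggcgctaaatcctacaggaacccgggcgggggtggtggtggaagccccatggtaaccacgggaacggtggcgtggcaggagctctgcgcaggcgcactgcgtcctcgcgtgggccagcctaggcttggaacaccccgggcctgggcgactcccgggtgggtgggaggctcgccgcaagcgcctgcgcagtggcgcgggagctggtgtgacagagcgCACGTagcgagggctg
Car9 (GRCm38.p6, chr4:43506776-43507025, plus strand): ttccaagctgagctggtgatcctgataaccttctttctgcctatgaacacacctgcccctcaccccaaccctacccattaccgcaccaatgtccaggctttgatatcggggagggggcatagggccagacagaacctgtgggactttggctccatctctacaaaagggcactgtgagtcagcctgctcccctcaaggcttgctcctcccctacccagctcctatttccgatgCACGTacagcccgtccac
Bnip3 (GRCm38.p6, chr7:138909507-138909756, minus strand): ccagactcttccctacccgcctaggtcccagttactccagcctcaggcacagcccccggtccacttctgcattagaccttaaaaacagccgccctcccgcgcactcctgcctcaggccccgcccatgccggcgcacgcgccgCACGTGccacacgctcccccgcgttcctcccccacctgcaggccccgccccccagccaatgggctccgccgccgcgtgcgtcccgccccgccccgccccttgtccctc
In Bnip3 the capitals are 2 overlapping matches, 1 on each strand.

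P4ha1, a collagen prolyl hydroxylase that needs oxygen, had 32 and 26 reads in the WT + GFP libraries and 141 and 132 in the KO + LEENE libraries, with no overlap between the groups (log2 fold change 2.84 ± 0.24; adjusted P = 1.26e-38, edgeR). Car9, a carbonic anhydrase that buffers pH in hypoxic cells, had 13 and 7 reads in KO + LEENE against 4 and 0 in WT + GFP, 7.65-fold higher with a 95% counting interval of 2.56 to 30.8, and overlaps an antisense gene; its call was lost without the first KO + LEENE library (adjusted P = 0.071) and by DESeq2 (adjusted P = 0.063). Bnip3, a receptor for removal of mitochondria, had no read in KO + LEENE: 113 and 111 WT + GFP reads against 0 and 0 KO + LEENE reads, which is at least 24.4-fold lower. Both KO + GFP libraries had none either. Adm, the vasodilator adrenomedullin, had 1 and 0 reads in the WT + GFP libraries and 174 and 182 in the KO + LEENE libraries, 545-fold higher with a 95% counting interval of 97.2 to 21583. Hif1a, the oxygen-regulated HIF subunit itself, had 930 and 870 reads in KO + LEENE against 10 and 10 in WT + GFP (log2 fold change 7.08 ± 0.33), and overlaps an antisense gene. Hmox1, heme oxygenase 1, fell from 13 and 9 reads to 2 and 1, a call lost without the first WT + GFP library (adjusted P = 0.061), without the second KO + LEENE library (adjusted P = 0.075) and on library size. Glycolytic genes were sparse, with 8 of 22 tested, 3 higher and 2 lower (33.9% and 36.9% over all genes). Aldoa (aldolase) had 8 and 6 WT + GFP reads against 147 and 148 KO + LEENE reads (log2 fold change 4.98 ± 0.44; antisense overlap), while Pkm (pyruvate kinase) had 51 and 37 reads in the WT + GFP libraries and 3 and 0 in the KO + LEENE libraries, 19.2-fold lower with a 95% counting interval of 6.35 to 94.7.

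Markers of other cell types that the CD144 fraction could hold were read from fixed lists, and their part in the differences above was not tested. Macrophage and monocyte genes were lower in 8 of 10 tested (36.9% of all genes were) and higher in 1 (33.9%), with a median log2 fold change of -2.72 (-2.41 with genes that had no read in 1 group at their bound), and their summed level in KO + LEENE was 0.353 times that in WT + GFP as CPM of library totals and 0.222 times on TMM-scaled totals. Lyz2, lysozyme, had 1 and 2 reads in KO + LEENE against 49 and 74 in WT + GFP, 26.8-fold lower with a 95% counting interval of 8.95 to 132. Tyrobp, an adaptor of myeloid receptors, had 27 and 25 WT + GFP reads against 0 and 0 KO + LEENE reads, at least 5.66-fold lower. Fcgr1, the high-affinity IgG receptor, was the exception that rose, from 0 and 1 to 5 and 7 reads. Adgre1 (F4/80), the defining macrophage marker, was at or under 3 reads in all 4 libraries but had 1823 and 1060 in KO + GFP. No neutrophil gene of 13 could be tested and 11 had at most 3 reads in all 4 libraries. Of 18 lymphocyte genes 3 were tested and 2 were lower (36.9% of all genes were).

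Stromal and muscle markers were also mixed. Of 13 fibroblast genes tested 4 were higher and 4 lower (33.9% and 36.9% over all genes). Col6a2, a collagen VI chain, had 10 and 5 reads in the WT + GFP libraries and 138 and 156 in the KO + LEENE libraries (log2 fold change 4.88 ± 0.42), whereas Sparc, a collagen-binding matrix protein, had 5 and 2 reads in KO + LEENE against 67 and 69 in WT + GFP (log2 fold change -3.63 ± 0.61; -4.42 without the first KO + LEENE library). Dcn, the proteoglycan decorin, was near wild type at 53 and 62 against 42 and 45 reads (log2 fold change 0.21 ± 0.14), where KO + GFP had 63633 and 40842; its call within 2-fold was lost without the second WT + GFP library and on library size. Mural cell genes gave 4 tested, of which 2 rose (33.9% of all genes did): Rgs5, a pericyte marker, went from 2 and 4 to 51 and 69 reads, 30.6-fold higher with a 95% counting interval of 13.7 to 85.1. Fast muscle fiber genes were at or under 3 reads in all 4 libraries for 14 of 22. Of the 9 tested, 2 were higher and 3 lower (33.9% and 36.9% over all genes). Acta1, skeletal muscle α-actin, rose from 2 and 1 to 53 and 43 reads, and Ryr1, the calcium release channel of muscle, fell from 211 and 245 to 7 and 9 (antisense overlap). Tpm1, tropomyosin, was within 2-fold with 3122 and 2866 WT + GFP reads against 1685 and 1687 KO + LEENE reads (log2 fold change -0.21 ± 0.10). Hemoglobin reads fell: Hba-a1, α-globin, had 11432 and 10776 reads in the WT + GFP libraries and 1557 and 1490 in the KO + LEENE libraries (log2 fold change -2.25 ± 0.11), and 5 of 7 red blood cell genes tested were lower (36.9% of all genes were).

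Mitochondrially encoded genes, core subunits of the respiratory chain and the ribosomal RNAs of the organelle, were lower in every member tested. Of 15 listed, 10 were tested. All 10 fell (36.9% of all genes did), 8 of them past 2-fold (28.9% of all genes), with a median log2 fold change of -3.24. Among those not tested, mt-Co2, mt-Co3 and mt-Atp8 had 0 reads in all 4 libraries. mt-Nd4l had 1 and 1 WT + GFP reads against 0 and 0 KO + LEENE reads, and mt-Atp6 had 1 and 1 against 2 and 5. The share of reads taken by all 37 genes of the mitochondrial genome, transfer RNAs included, was 50.5% ± 0.563 (SD, n = 2) in WT + GFP, 33.7% ± 0.0906 in KO + LEENE and 34.3% ± 0.0764 in KO + GFP. The falls were far from equal. mt-Nd2, a complex I subunit, had 1622 and 1720 reads in KO + LEENE against 226006 and 209351 in WT + GFP (log2 fold change -6.41 ± 0.065). mt-Cytb, the cytochrome b of complex III, had 74190 and 68940 WT + GFP reads against 7066 and 7099 KO + LEENE reads (log2 fold change -2.72 ± 0.083), and mt-Co1, the catalytic subunit of complex IV, 22092 and 20279 reads in the WT + GFP libraries and 5567 and 5731 in the KO + LEENE libraries (log2 fold change -1.29 ± 0.086). Both ribosomal RNAs were called lower yet lay within 2-fold, at log2 fold change -0.79 ± 0.058 for mt-Rnr1 and log2 fold change -0.80 ± 0.046 for mt-Rnr2. Several of these genes overlap a neighbor, and the order of their falls is a difference on the log2 scale, not a level.

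Nuclear genes for the same respiratory complexes did not follow in 1 direction. Complex I genes were lower in 11 of 19 tested and higher in 3 (36.9% and 33.9% over all genes), with a median log2 fold change of -2.80 (-2.14 with genes that had no read in 1 group at their bound). Ndufv2, a flavoprotein subunit at the entry of electrons, had 3 and 1 reads in KO + LEENE against 1341 and 1244 in WT + GFP, 422-fold lower with a 95% counting interval of 165 to 1551, and Ndufs1, the largest subunit, had 80 and 53 WT + GFP reads against 86 and 74 KO + LEENE reads (log2 fold change 0.88 ± 0.20; antisense overlap). Complexes II to IV gave 8 higher and 7 lower of 16, against the same shares over all genes. Cox7c, a small subunit of cytochrome oxidase, had no read in KO + LEENE, with 220 and 202 reads in the WT + GFP libraries and 0 and 0 in the KO + LEENE libraries, at least 46.0-fold lower. Uqcrc2, a core subunit of complex III, had 479 and 465 reads in KO + LEENE against 20 and 23 in WT + GFP (log2 fold change 5.06 ± 0.24; antisense overlap). Uqcrc1, its partner in that core, went the other way: 97 and 61 WT + GFP reads against 1 and 1 KO + LEENE reads, 51.6-fold lower with a 95% counting interval of 14.1 to 429.9. In ATP synthase, Atp5f1a, the α chain of its catalytic head, had 434 and 444 reads in the WT + GFP libraries and 9 and 7 in the KO + LEENE libraries (log2 fold change -5.15 ± 0.39), while Atp5mc1, a gene for the membrane ring, had 327 and 332 reads in KO + LEENE against 0 and 0 in WT + GFP, at least 168-fold higher. Atp5mf, another membrane subunit, was within 2-fold except on library size: 157 and 160 WT + GFP reads against 126 and 123 KO + LEENE reads (log2 fold change 0.26 ± 0.13).

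Ribosomal protein genes, whose products are made in equal number and assemble into 1 particle, included genes called in each direction. Large subunit genes were higher in 7 and lower in 19 of 37 tested, and small subunit genes higher in 9 and lower in 17 of 31, where 33.9% of all genes were higher and 36.9% lower; the small subunit genes had a median log2 fold change of -1.52 (-1.01 with genes that had no read in 1 group at their bound). At one end, Rpl37 had 4677 and 4204 reads in the WT + GFP libraries and 9 and 6 in the KO + LEENE libraries (log2 fold change -8.58 ± 0.27) and Rps7 15 and 16 reads in KO + LEENE against 3745 and 3503 in WT + GFP (log2 fold change -7.25 ± 0.24). At the other, Rpl17 had 33 and 37 WT + GFP reads against 2864 and 2985 KO + LEENE reads (log2 fold change 6.99 ± 0.17) and Rps4x 29 and 25 reads in the WT + GFP libraries and 957 and 1058 in the KO + LEENE libraries (log2 fold change 5.83 ± 0.20). Between them, Rps15 was level with 714 and 663 reads in KO + LEENE against 1046 and 977 in WT + GFP (log2 fold change 0.06 ± 0.075; adjusted P = 1.12e-30 for lying within 2-fold, edgeR fit), as was Rplp1 with 466 and 388 WT + GFP reads against 263 and 283 KO + LEENE reads (log2 fold change -0.03 ± 0.10). Of the 42 ribosomal genes with at least 10 reads in all 4 libraries, 14 rose and 21 fell, where 38.0% of the well-measured genes were higher and 34.5% lower. Ribosomal genes have many processed copies in the genome, which can take or share reads in counting.

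Initiation and elongation factors showed the same span. Of 28 tested 12 were higher and 10 lower (33.9% and 36.9% over all genes). Eif3b, a scaffold subunit of the factor eIF3, had 1883 and 1709 reads in the WT + GFP libraries and 4 and 0 in the KO + LEENE libraries, 587-fold lower with a 95% counting interval of 229 to 2154, while Eif3g of the same complex had 393 and 385 reads in KO + LEENE against 1 and 1 in WT + GFP, 595-fold higher with a 95% counting interval of 164 to 4925. Pabpc1, the poly(A)-binding protein, had 84 and 74 WT + GFP reads against 2152 and 2214 KO + LEENE reads (log2 fold change 5.40 ± 0.14), and Eif4e, which binds the mRNA cap, was within 2-fold at 140 and 132 reads in the WT + GFP libraries and 72 and 73 in the KO + LEENE libraries (log2 fold change -0.29 ± 0.17; overlaps a gene on the same strand). Proteasome genes were higher in 11 and lower in 6 of 20 (33.9% and 36.9% over all genes), with a median log2 fold change of 0.86 (0.74 with genes that had no read in 1 group at their bound). Psma6, a ring subunit of the core particle, had 911 and 900 reads in KO + LEENE against 2 and 0 in WT + GFP, 1386-fold higher with a 95% counting interval of 383 to 11454, whereas Psmb3, also of the core, had no read in KO + LEENE, with 132 and 129 WT + GFP reads against 0 and 0 KO + LEENE reads, at least 28.5-fold lower.

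**Figure D3:**
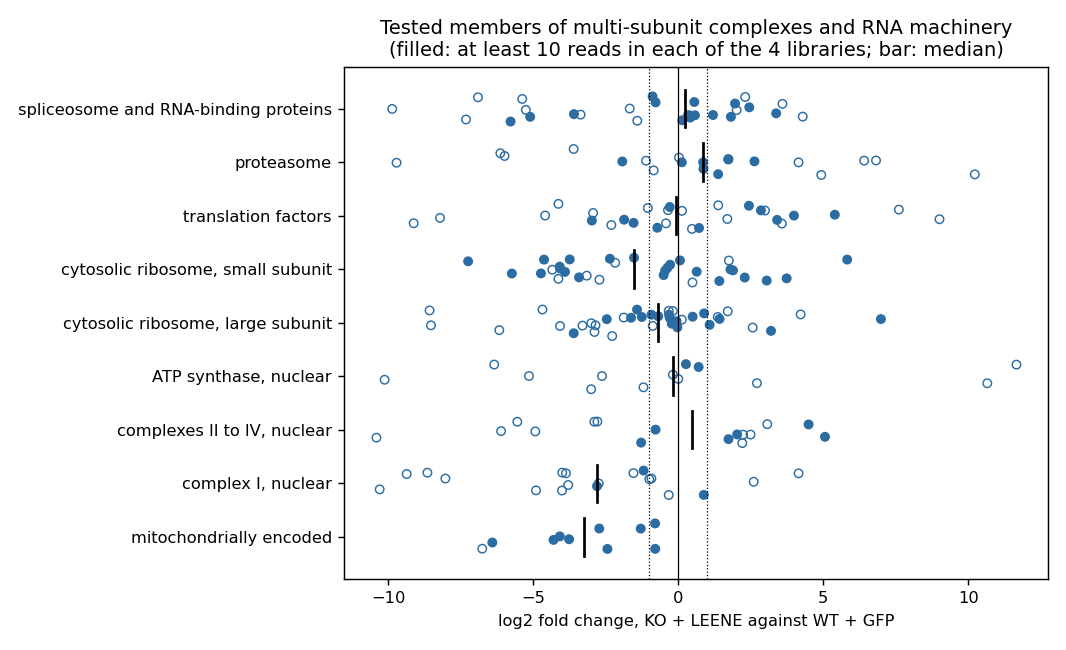
log2 fold change of KO + LEENE against WT + GFP (x axis) for each tested member of 9 gene lists (y axis), 1 symbol per gene; filled symbols have at least 10 reads in each of the 4 libraries, bars mark medians, and dotted lines mark 2-fold. Members of 1 complex spread on both sides of 0 in every list shown except the mitochondrially encoded genes, which all lie below it.

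Of 28 RNA processing genes tested, 13 were higher and 13 lower, where the shares over all genes were 33.9% and 36.9%. Srsf3, a splicing regulator of the SR family, had 743 and 743 reads in the WT + GFP libraries and 15 and 13 in the KO + LEENE libraries (log2 fold change -5.11 ± 0.29), while Srsf5 of the same family had 504 and 550 reads in KO + LEENE against 83 and 72 in WT + GFP (log2 fold change 3.38 ± 0.14). Malat1, an abundant nuclear noncoding RNA, was within 2-fold with 19467 and 17947 WT + GFP reads against 16155 and 16363 KO + LEENE reads (log2 fold change 0.41 ± 0.10; overlaps genes on both strands), but past 2-fold on library size (log2 fold change 1.08; adjusted P = 0.021, edgeR). Myc and the PAF1 complex, which guides elongation by RNA polymerase II, are listed because the study examined both alongside LEENE. Myc had 177 and 159 reads in the WT + GFP libraries and 1 and 0 in the KO + LEENE libraries, 219.5-fold lower with a 95% counting interval of 39.1 to 8696. Paf1, the complex's namesake, had 194 and 199 reads in KO + LEENE against 16 and 13 in WT + GFP (log2 fold change 4.36 ± 0.31), Ctr9, its scaffold, had 267 and 254 WT + GFP reads against 32 and 30 KO + LEENE reads (log2 fold change -2.45 ± 0.22), and Cdc73 was within 2-fold except on library size (log2 fold change -0.07 ± 0.21; antisense overlap).

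Immediate early genes, which respond within minutes to stress or digestion of tissue, were higher in 6 and lower in 7 of 15 (33.9% and 36.9% over all genes). Junb had 1952 and 1675 reads in the WT + GFP libraries and 9 and 8 in the KO + LEENE libraries (log2 fold change -7.10 ± 0.34), whereas Egr1 had 492 and 567 reads in KO + LEENE against 123 and 90 in WT + GFP (log2 fold change 2.93 ± 0.12) and Btg2, an antiproliferative gene, had 1 and 0 WT + GFP reads against 221 and 206 KO + LEENE reads, 654-fold higher with a 95% counting interval of 117 to 25876. Jun was called higher but lay on neither side of 2-fold, at 1937 and 1816 reads in the WT + GFP libraries and 2322 and 2388 in the KO + LEENE libraries (log2 fold change 0.94 ± 0.11; antisense overlap). Cell cycle genes were lower in 10 and higher in 5 of 19 (36.9% and 33.9% over all genes), with a median log2 fold change of -1.72. Ccnb2, a mitotic cyclin, had 1 and 3 reads in KO + LEENE against 634 and 618 in WT + GFP, 204-fold lower with a 95% counting interval of 79.7 to 752, and Mki67, the proliferation marker Ki-67, fell from 13 and 12 reads to 3 and 1, a call lost without the second KO + LEENE library (adjusted P = 0.16), by DESeq2 (adjusted P = 0.094) and on library size. Ccnd1, the G1 cyclin D1, had 11 and 7 WT + GFP reads against 216 and 221 KO + LEENE reads (log2 fold change 5.19 ± 0.38; antisense overlap), while its relative Ccnd3 was within 2-fold except on library size (log2 fold change 0.16 ± 0.12; antisense overlap).

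In the list for adhesion and inflammation of endothelium, 7 of 10 tested genes were higher and 1 lower, where 33.9% and 36.9% of all genes were; 6 of the 7 were past 2-fold (26.9% of all genes), with a median log2 fold change of 2.82 (3.07 with genes that had no read in 1 group at their bound). Nfkbia, the inhibitor and target of NF-κB, had 81 and 83 reads in the WT + GFP libraries and 493 and 514 in the KO + LEENE libraries (log2 fold change 3.23 ± 0.13), and 26944 and 17073 in KO + GFP. Cxcl1, a neutrophil attractant, had 102 and 114 reads in KO + LEENE against 17 and 18 in WT + GFP (log2 fold change 3.23 ± 0.29), and Ccl2, which attracts monocytes, had 1 and 2 WT + GFP reads against 38 and 42 KO + LEENE reads, 40.8-fold higher with a 95% counting interval of 13.5 to 202. Vcam1, a leukocyte adhesion molecule, was raised but within 2-fold at 1194 and 991 reads in the WT + GFP libraries and 951 and 1000 in the KO + LEENE libraries (log2 fold change 0.45 ± 0.086; antisense overlap), but past 2-fold on library size (log2 fold change 1.12; adjusted P = 0.021, edgeR). Cxcl12, which retains progenitor cells, was the 1 gene that fell, 3 and 5 reads in KO + LEENE against 39 and 37 in WT + GFP (log2 fold change -2.60 ± 0.55). In coagulation, Thbd, the anticoagulant receptor thrombomodulin, had 97 and 79 WT + GFP reads against 0 and 1 KO + LEENE reads, 115-fold lower with a 95% counting interval of 20.4 to 4567. Antigen presentation genes were lower in 4 of 5 tested (36.9% of all genes were): B2m, the light chain of class I molecules, had 87 and 50 reads in the WT + GFP libraries and 4 and 3 in the KO + LEENE libraries (log2 fold change -3.63 ± 0.47).

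Of 19 collagen and basement membrane genes tested, 6 were higher and 7 lower, near the shares over all genes of 33.9% and 36.9%. Hspg2, the basement membrane proteoglycan perlecan, had 546 and 555 reads in KO + LEENE against 10948 and 10028 in WT + GFP (log2 fold change -3.64 ± 0.11), whereas Col4a1, a chain of basement membrane collagen, had 24 and 31 WT + GFP reads against 337 and 323 KO + LEENE reads (log2 fold change 4.19 ± 0.20; antisense overlap) and Fn1, fibronectin, had 245 and 253 reads in the WT + GFP libraries and 1054 and 1207 in the KO + LEENE libraries (log2 fold change 2.79 ± 0.10; antisense overlap). Mmp2, a gelatinase of vessel sprouting, had 297 and 254 reads in KO + LEENE against 18 and 15 in WT + GFP (log2 fold change 4.66 ± 0.29), and Timp1, a metalloproteinase inhibitor, had 138 and 139 WT + GFP reads against 0 and 1 KO + LEENE reads, 181-fold lower with a 95% counting interval of 32.2 to 7173. Lama4, a laminin of endothelial basement membrane, was within 2-fold except on library size, at 102 and 90 reads in the WT + GFP libraries and 68 and 61 in the KO + LEENE libraries (log2 fold change 0.04 ± 0.19). S100 proteins and annexins were lower in 7 of 11 (36.9% of all genes were) and higher in 1 (33.9%). S100a11, a calcium sensor of membrane repair, had 2 and 0 reads in KO + LEENE against 4833 and 4209 in WT + GFP, 2954-fold lower with a 95% counting interval of 817 to 24392, and Anxa2, annexin A2, a plasminogen receptor, was the 1 that rose, with 32 and 32 WT + GFP reads against 756 and 914 KO + LEENE reads (log2 fold change 5.31 ± 0.19; antisense overlap).

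Cytoskeletal genes gave 33 tested, 11 higher and 14 lower (33.9% and 36.9% over all genes), and 4 of the 33 were within 2-fold (6.39% of all genes). Actb, β-actin, was level with wild type at 537 and 504 reads in the WT + GFP libraries and 298 and 341 in the KO + LEENE libraries (log2 fold change -0.09 ± 0.10; adjusted P = 1.47e-16 for lying within 2-fold, edgeR fit), while KO + GFP had 58995 and 38293 reads. Actg1, γ-actin, had 90 and 94 reads in KO + LEENE against 4 and 3 in WT + GFP (log2 fold change 5.27 ± 0.61; overlaps a gene on the same strand), so the cytoplasmic actins did not move together. Actn4 and Actn1, nonmuscle α-actinins, moved in opposite directions: Actn4 had 33 and 24 WT + GFP reads against 921 and 901 KO + LEENE reads (log2 fold change 5.61 ± 0.20; antisense overlap), and Actn1 had 2170 and 1987 reads in the WT + GFP libraries and 56 and 60 in the KO + LEENE libraries (log2 fold change -4.55 ± 0.14). Rhoa, a GTPase of stress fibers, had 10 and 8 reads in KO + LEENE against 255 and 273 in WT + GFP (log2 fold change -4.25 ± 0.34; antisense overlap).

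**Figure D4:**
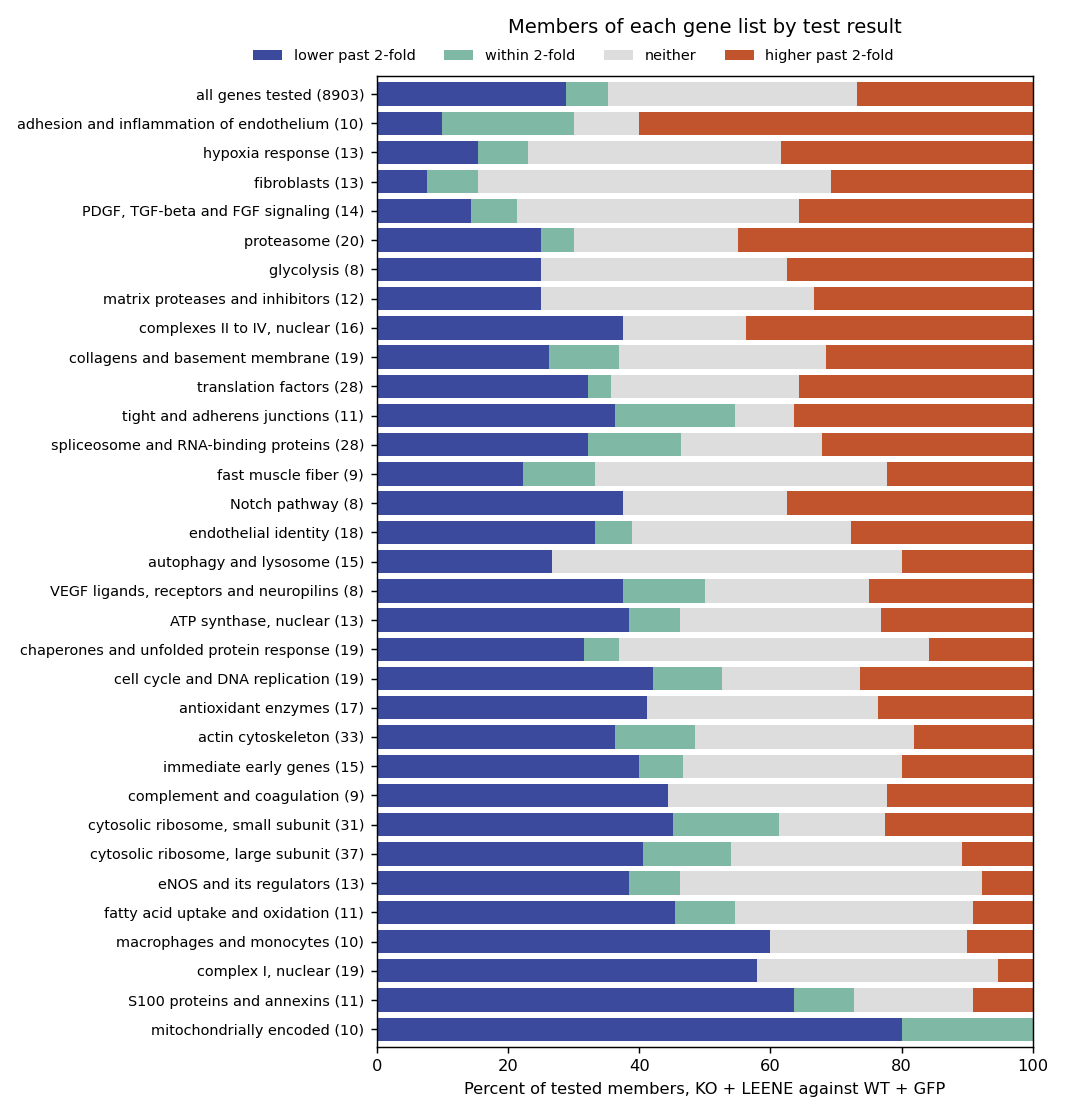
Share of tested members (x axis, percent) of each gene list with at least 8 tested members (y axis, number tested in parentheses) that were lower past 2-fold, within 2-fold, neither, or higher past 2-fold in KO + LEENE against WT + GFP; the top bar gives all 8903 genes. Every list shown holds members in both outer classes except the mitochondrially encoded genes, where none was higher past 2-fold.

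Among genes with at least 10 reads in each library, those with the smallest P value for lying within 2-fold included Gm12155, Mtrnr2l7, Pip5k1a, Rps15, Gm28693, Gm45753 and Rbm45. This ranking favors deeply counted genes and is not an order of closeness to wild type. Gm12155, annotated as a processed pseudogene, was the most abundant of these genes at 318835 and 295104 WT + GFP reads against 239041 and 242711 KO + LEENE reads (log2 fold change 0.26 ± 0.058). It was itself called higher (adjusted P = 1.06e-05, edgeR), with a log2 fold change of 0.93 on library size. Pip5k1a, a kinase that makes the membrane lipid PI(4,5)P2, had 1088 and 1078 reads in the WT + GFP libraries and 667 and 693 in the KO + LEENE libraries (log2 fold change -0.06 ± 0.075), and Rbm45, an RNA-binding protein, had 458 and 481 reads in KO + LEENE against 775 and 695 in WT + GFP (log2 fold change -0.03 ± 0.083). Their KO + GFP reads were 234 and 157 for Pip5k1a and 463 and 302 for Rbm45. The 8 largest falls in the same set included Xpo7, Btg1, Rps7, Arhgef28, Kif5b and mt-Nd2. Xpo7, a nuclear export receptor, had 30279 and 27432 WT + GFP reads against 26 and 23 KO + LEENE reads (log2 fold change -9.58 ± 0.16), and Btg1, an antiproliferative gene of quiescent cells, had 14228 and 13056 reads in the WT + GFP libraries and 14 and 19 in the KO + LEENE libraries (log2 fold change -9.07 ± 0.21). The 8 largest rises were Fis1, Mllt10, Map1a, Hif1a, Tcf12, Rpl17, Specc1l and Tsc22d1. Fis1, an adaptor for mitochondrial fission, had 4969 and 5038 reads in KO + LEENE against 14 and 17 in WT + GFP (log2 fold change 8.93 ± 0.23), and Mllt10, a chromatin cofactor, had 20 and 19 WT + GFP reads against 6261 and 6294 KO + LEENE reads (log2 fold change 8.93 ± 0.21; antisense overlap).

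Many genes were on in 1 group and at the floor in the other. With on set at 10 or more reads in both libraries and the floor at 3 or fewer in both, 1350 genes were on in WT + GFP and at the floor in KO + LEENE, and 675 the reverse. Depth differed between the groups and moved this split: with every library thinned to 1770992 reads the counts were 744 and 1124. Thinning equalized raw totals and not the TMM scale, whose factors were 0.959 and 0.955 for WT + GFP and 1.52 and 1.52 for KO + LEENE. Neither split therefore compares the groups at equal scaled depth. Of the 1350 genes, 752 were also at the floor in both KO + GFP libraries and 248 were on there. Of the 675 genes, 435 were at the floor in KO + GFP and 98 were on. Among genes on in WT + GFP, most reads fell to Cavin2, a coat protein of caveolae, with 14234 and 12897 reads in the WT + GFP libraries and 2 and 0 in the KO + LEENE libraries, 8862-fold lower with a 95% counting interval of 2453 to 73183, followed by Zbtb11, Ormdl1, mt-Tp and Rpl36al, the first 2 of which overlap other genes. mt-Tp, the mitochondrial proline tRNA, had 0 and 0 reads in KO + LEENE against 5609 and 5276 in WT + GFP, at least 1186-fold lower. Among genes on in KO + LEENE, Atp5f1d, the δ subunit of ATP synthase, had 1 and 3 WT + GFP reads against 2304 and 2249 KO + LEENE reads, 1742-fold higher with a 95% counting interval of 680.0 to 6397 (antisense overlap), followed by Hexim1, Ankrd13d, Polr2b and Scmh1. Hexim1, an inhibitor of transcription elongation, had 2 and 1 reads in the WT + GFP libraries and 1335 and 1396 in the KO + LEENE libraries, 1393-fold higher with a 95% counting interval of 476 to 6761. Polr2b, the second largest subunit of RNA polymerase II, had 991 and 1021 reads in KO + LEENE against 2 and 0 in WT + GFP, 1539.9-fold higher with a 95% counting interval of 426 to 12724 (antisense overlap).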

How the data were processed

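Bulk RNA-seq was performed in CD144-enriched cells of ischemic mouse muscle, and 4 of the 6 libraries, the 2 KO + LEENE and 2 WT + GFP samples grouped by title, were compared. Libraries were made, per the labels, by a 3′ single-cell chemistry used without droplets. Per the file headers, the authors counted uniquely aligned reads over exons of Ensembl release 84 on GRCm38 with featureCounts 2.0.0, without strand, so the deposited values are raw read counts. The submitters' processing notes name STAR 2.5.4b, bcl2fastq 2.18 and mm10, and the study's methods mm9. No collapsing of molecular identifiers is named, so intervals and floors cover counting error only.

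Names matched 43465 of 47729 gene identifiers in a later annotation. Counts were tested with edgeR 4.0.16 in R 4.3.3: all 6 libraries, 1 mean per group, TMM, filterByExpr, glmQLFTest, and glmTreat for changes past 2-fold. A pair of one-sided tests on the same fit gave genes within 2-fold. P values were adjusted by Benjamini-Hochberg over 8903 genes. Scripts were tested on simulated counts. Depth was 1770992 to 4534530 reads in the 4 libraries, and the floor was 3 reads per library. Where a group held 6 reads or fewer in all, a ratio of summed reads with an exact 95% interval replaces the fitted fold change; where it held none, a bound at the floor does. Members and gene lists were chosen with earlier results of these data known. Named genes were, per list, the largest rise and fall among called members above a set mean level and without overlap between the groups. The member with the smallest P for lying within 2-fold, the most abundant and others needed to describe the counts were also named. Among well-measured genes they were the 8 largest rises, 8 largest falls and 8 with the smallest P for lying within 2-fold. The 5 with most reads on in 1 group only were added. Some genes that these rules name are not reported here. Alternatives were other size factors, DESeq2 1.42.0, 4 samples only, other filters and thresholds, thinning, a replicate block, summed libraries and leaving out each library. With 2 libraries per group, an exact permutation test of a single value cannot go below P = 0.333, so none was run.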

Additional observations from a re-analysis of the deposited data

How the results depend on the processing

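Counts of genes called, past 2-fold and within 2-fold stayed within 1.5 times their reported values under other size factors, library size only, DESeq2, the 4 samples alone, no filter, thinning, an adjusted P of 0.01 and summed libraries, where each was run. Calls ranged from 4920 (thinned) to 6971 (no filter), with 5519 by DESeq2. Testing only genes with at least 10 reads in each of the 4 libraries gave 2028 calls, 1005 higher and 1023 lower, and 1189 past 2-fold, since fewer genes were tested. A margin of 1.5-fold left 133 genes shown to be within it, in all genes and in the well-measured ones alike. Genes on in WT + GFP only numbered 744 after thinning and 862 with on set at 20 reads; genes on in KO + LEENE only numbered 1124 and 444. Thinning to equal raw totals thus turned which group had more of them, but it did not equalize depth on the TMM scale. On library size 230 of the 569 genes stayed within 2-fold.

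Leaving out each library in turn gave 5784 to 6224 calls, 2728 to 2988 higher, 3033 to 3236 lower, 4673 to 4933 past 2-fold and 406 to 499 within 2-fold. In the well-measured genes it gave 1817 to 1960 calls, 1133 to 1200 past 2-fold and 405 to 497 within 2-fold. Where a group was left with 1 library, that library was assumed to vary like the other groups. The mitochondrially encoded share was 33.6% to 33.7% in KO + LEENE and 50.1% to 50.9% in WT + GFP. Among the named genes called different, Hsp90ab1 (0.20) and Pgf (0.0028) changed sign on library size, on the log2 scale, as did 11 named genes that were not called, Pecam1 and Actb among them. Leaving out 1 library moved the fitted fold of 31 named genes by over 1.5 times, mostly genes with 6 reads or fewer in a group, for which the text gives a ratio of reads or a bound. In pairs of a named gene and an alternative, the call was lost in 55, mostly for Tjp1, Nos3, Xist and Uty, and gained in 3, for Tie1 and Kdm5d.

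The fit with the replicate block gave 6147 calls, with 1942 in well-measured genes. Same-numbered libraries of the 2 groups did not deviate together (correlation of deviations 0.014), so the numbers were not taken to pair them. At a mean under 10 reads, 35.4% of 2751 genes were placed past 2-fold and 0 within it, so depth limits which genes could be shown to lie near wild type.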
